A study of Mus musculus with 9 samples.

Results

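The microRNA (miRNA) hairpins mir-183, mir-96 and mir-182 lie side by side at a single locus and are cut from a single primary transcript, and 4 of their mature products were followed through milk fat: mmu-miR-182-5p, mmu-miR-96-5p, mmu-miR-183-5p and mmu-miR-183-3p. These names were chosen by locus, not by a cut on measured values, though earlier results of these data were known. They are 4 of the 1915 mature names in the deposited count table. The other arms of the same hairpins, miR-182-3p and miR-96-3p, are described beside them. The table holds small RNA read counts of milk fat, washed to remove cells, from 9 dams of the outbred ICR (CD1) stock nursing their first litter at lactation day 10. The 5 control dams ate a diet with 10% of its energy as fat (3.85 kcal per g), and the 4 high-fat dams a diet with 60% of its energy as fat (5.24 kcal per g). Both diets held 7% of energy as sucrose, began at 4 weeks of age, 4 weeks before mating, and went on through pregnancy and lactation. Each library is 1 dam, so the dams are the replicates. Dams were kept in pairs within a diet, but the labels do not name the cage mates.

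As background, miRNAs guide Argonaute proteins to messenger RNAs that pair with the seed, the short stretch near the 5′ end of the miRNA, and the paired messages are translated less or degraded. The cluster is best known from sensory cells such as hair cells and photoreceptors, where loss of the cluster or mutation of the miR-96 seed leads to hearing loss, and it is also abundant in many epithelia. Among its described targets is the transcription factor FOXO1. In liver, the sterol-sensing factor SREBP-2 has been described to activate the locus, and Fbxw7 and Insig2, which restrain lipid synthesis, are described targets of its products. Fat synthesis is a main task of the lactating mammary epithelium, and milk fat globules leave that epithelium carrying cytoplasm and its RNA.

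The mature sequences are shown because the members have near-identical but not identical seeds. They are read 5′ to 3′ from the RefSeq miRNA table of the GRCm38 mouse build, and capitals mark the seed, bases 2 to 8.
mmu-miR-182-5p: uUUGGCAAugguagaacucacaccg
mmu-miR-96-5p: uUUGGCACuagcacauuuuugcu
mmu-miR-183-5p: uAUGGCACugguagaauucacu
mmu-miR-183-3p: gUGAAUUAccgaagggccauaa

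No pair of members has the same seed. Counting positions from 1 at the 5′ end and giving the first-named miRNA's base first, miR-96-5p differs from miR-182-5p in the seed by C8A and from miR-183-5p by U2A. miR-182-5p differs from miR-183-5p by both U2A and A8C. Over their whole length, miR-182-5p and miR-183-5p are the closest pair, with the same base at 18 of 22 positions, against 13 of 22 for miR-96-5p with miR-183-5p and 12 of 23 for miR-96-5p with miR-182-5p. The seed of miR-183-3p is not of this group. Of the 1915 names in the table, 1623 were matched to a RefSeq mature sequence, and 1 name outside the cluster shared a seed with any of its arms. That name was miR-3475-5p, which has the seed of miR-96-3p and a count of 0 in all 9 libraries. Each member has 1 row in the table, and no other name has the same counts as a member.

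All 3 hairpins are on the minus strand of mouse chromosome 6 within 3820 bases (GRCm38). Mir183 is at chr6:30169668-30169737, Mir96 at chr6:30169446-30169551 and Mir182 at chr6:30165918-30165992. Mir183 and Mir96 are 116 bases apart, and Mir96 and Mir182 are 3453 bases apart. The annotation places the locus between genes, with no coding gene overlapping a hairpin. Nrf1, on the plus strand, is the nearest coding gene at lower coordinates, 12459 bases from Mir182. Ube2h, on the minus strand, is the nearest at higher coordinates, 41551 bases from Mir183. The mature miR-182-5p is at chr6:30165962-30165986, miR-96-5p at chr6:30169506-30169528, miR-183-5p at chr6:30169711-30169732 and miR-183-3p at chr6:30169672-30169693. The Mir183 hairpin is shown because both of its arms are members, and its capitals mark the 5p arm and then the 3p arm.
Mir183: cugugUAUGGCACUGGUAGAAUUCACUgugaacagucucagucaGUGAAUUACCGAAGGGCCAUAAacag

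Library totals ran from 837817 to 2750482 counts in controls and from 1905838 to 3897109 in high-fat dams. miRNAs of milk-secreting epithelium (8 names, among them miR-148a-3p and the miR-200 family) held 26.9% to 32.7% of counts in controls and 28.9% to 31.9% in high-fat libraries. The 6 neural and retinal miRNAs held 0.146% to 0.188% of counts in controls and 0.145% to 0.211% in high-fat libraries. Of these, miR-7a-5p had means of 1591 ± 200 CPM (SD, n = 5) and 1631 ± 355 CPM (SD, n = 4) and miR-9-5p 9.20 and 19.0 CPM, while miR-138-5p, miR-204-5p and miR-124-3p had at most 15, 9 and 8 counts in any library and miR-211-5p had 0. CPM are counts scaled to a common library size, here with trimmed mean of M values (TMM) factors. Leukocyte miRNAs (6 names, among them miR-223-3p and miR-142a-5p) held 0.0617% to 0.104% of counts in controls, against 1.22%, 0.0281%, 0.351% and 0.0566% in high-fat dams 1 to 4. High-fat libraries 1 and 3 stand apart in this respect, and the diet differences of the members and of the cluster are given without them as well. In such bulk samples, fewer cells of a type and less RNA per cell cannot be told apart.

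miR-182-5p was the most abundant member in every library, followed by miR-183-5p, miR-96-5p and miR-183-3p, and this order was the same in all 9 libraries. By mean share of counts they took places 25, 33, 59 and 184 among all names. Together the 4 members made up 1.54% ± 0.192 of counts (SD, n = 5) in controls and 1.36% ± 0.269 (SD, n = 4) in high-fat libraries. Shares set a miRNA against the whole library. How evenly the kit captures different miRNAs was not measured here, so a ratio of counts between miRNAs is not a ratio of molecules.

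miR-182-5p, the member with the longest mature sequence (25 bases), had 0.738%, 0.873%, 0.972%, 0.928% and 1.09% of counts in control libraries 1 to 5. In high-fat libraries 1 to 4 it had 0.697%, 0.892%, 0.748% and 0.768%. Control 5 was the highest and high-fat 1 the lowest, and the diets overlapped. Counting error was small at this depth: the 95% Wilson interval of the smallest library, control 5, was 1.07% to 1.11%. The 1.69-fold range between the lowest and highest library, on the scale of TMM-scaled CPM, was the narrowest of the 4 members.

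miR-183-5p, the second most abundant member, had 0.460%, 0.379%, 0.486%, 0.673% and 0.525% in controls 1 to 5, and 0.326%, 0.649%, 0.394% and 0.322% in high-fat dams 1 to 4. Control 4 and high-fat 2 were the highest libraries, and the other 3 high-fat libraries were below 4 of the 5 controls. The range in scaled CPM was 2.29-fold.

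miR-96-5p, whose seed is the one mutated in inherited deafness, had 0.114%, 0.122%, 0.0810%, 0.151% and 0.0754% in control libraries 1 to 5. It had 0.125%, 0.205%, 0.117% and 0.161% in high-fat dams 1 to 4. Controls 3 and 5 were the lowest and high-fat 2 the highest, with a 2.81-fold range in scaled CPM, the widest of the 4 members. Among the 136 tested names with a mean of at least 100 CPM, 115 had a lower SD of log2 CPM than miR-96-5p in controls and 101 had a lower one in high-fat libraries. For miR-182-5p these numbers were 55 and 42, and for miR-183-5p they were 87 and 114.

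**Figure D1:**
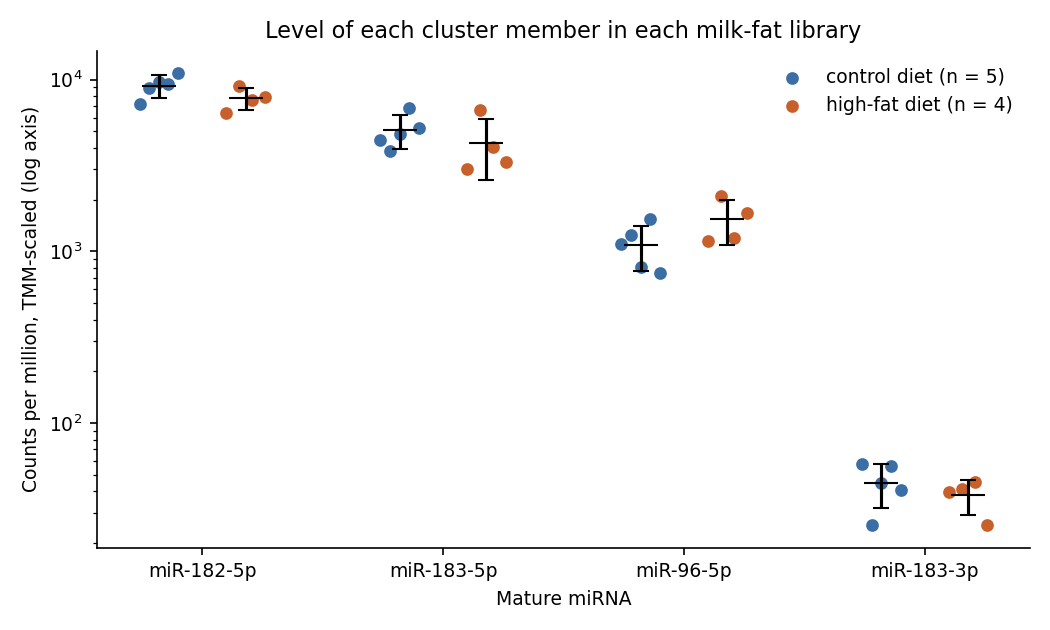
CPM with TMM-scaled library sizes (log axis) of the 4 members in the 5 control and 4 high-fat libraries. Each point is 1 dam, in order of library number, and the horizontal bars with whiskers are the mean and SD; miR-182-5p lies between 6414 and 10870, miR-183-5p between 3002 and 6869, miR-96-5p between 750.9 and 2110 and miR-183-3p between 25.3 and 57.6, and the diets overlap for each.

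miR-183-3p, the opposite arm of the miR-183-5p hairpin, was read from 31 to 156 counts per library. Controls 1 to 5 had 100, 31, 124, 88 and 34 counts of it, and high-fat dams 1 to 4 had 100, 156, 90 and 47. Control 2 and high-fat 4 had the lowest shares, 0.00249% and 0.00247%, and the diets overlapped. It was 0.885% ± 0.237 (SD, n = 5) of the reads of both arms in controls and 0.947% ± 0.315 (SD, n = 4) in high-fat libraries. The 3p arm of mir-96 was 0.627% ± 0.210 (SD, n = 5) of its hairpin's reads in controls and 0.317% ± 0.200 (SD, n = 4) in high-fat libraries, but these rest on 6 to 15 counts a library. The 3p arm of mir-182 was 0.0950% ± 0.0312 (SD, n = 5) and 0.108% ± 0.0760 (SD, n = 4), on 5 to 39 counts. All 3 hairpins were thus read almost wholly from the 5p arm, and mir-182 had the lowest 3p share.

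The members come from 1 transcript, and the ratio of their counts within a library needs no library scale. Each miR-183-5p count was matched by 1.60, 2.30, 2.0, 1.38 and 2.08 miR-182-5p counts in controls 1 to 5, and by 2.14, 1.37, 1.9 and 2.39 in high-fat dams 1 to 4. The log2 ratio of miR-183-5p to miR-182-5p was -0.88 ± 0.30 (SD, n = 5) in controls and -0.93 ± 0.34 (SD, n = 4) in high-fat libraries. The difference of -0.05 was smaller than the spread within either diet (two-sided exact permutation test, p = 0.841). Control 4 and high-fat 2, 1 library of each diet, had the fewest miR-182-5p counts for each miR-183-5p count. Without high-fat libraries 1 and 3 the difference was 0.024, with an exact permutation p of 1.0.

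The mean ratio of miR-96-5p to its partners was higher in high-fat libraries, short of the threshold once adjusted. For each miR-96-5p count there were 6.48, 7.15, 12.0, 6.16 and 14.5 miR-182-5p counts in controls 1 to 5, and 5.56, 4.35, 6.39 and 4.76 in high-fat dams 1 to 4. The log2 ratio of miR-96-5p to miR-182-5p was -3.12 ± 0.56 (SD, n = 5) in controls and -2.38 ± 0.25 (SD, n = 4) in high-fat libraries, a 1.67-fold difference. In 3 of 4 high-fat libraries the ratio was above all controls, and high-fat 3, at -2.68, lay between control 1 at -2.70 and control 4 at -2.62. The two-sided exact permutation test gave p = 0.0317, and 0.0952 after Benjamini-Hochberg adjustment over the 4 ratios tested, so the difference did not pass the threshold of 0.05.

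Against miR-183-5p the pattern was similar. There were 4.04, 3.10, 6.0, 4.47 and 6.96 miR-183-5p counts for each miR-96-5p count in controls 1 to 5, and 2.60, 3.16, 3.36 and 1.99 in high-fat dams 1 to 4. The log2 ratio of miR-96-5p to miR-183-5p was -2.24 ± 0.46 (SD, n = 5) in controls and -1.45 ± 0.34 (SD, n = 4) in high-fat libraries, a 1.73-fold difference, with 2 of 4 high-fat libraries above all controls. The exact permutation p was 0.0476, and 0.0952 after adjustment over the 4 ratios. The log2 ratio of the 2 arms of mir-183, 5p over 3p, was 6.83 ± 0.36 (SD, n = 5) and 6.76 ± 0.50 (SD, n = 4), with an exact permutation p of 0.825.

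The counts of the 4 members were also expressed as percentages of their sum, a measure added after the data had been examined. miR-96-5p was 8.65%, 8.87%, 5.25%, 8.57% and 4.45% of the sum in controls 1 to 5, and 10.9%, 11.7%, 9.27% and 12.9% in high-fat dams 1 to 4. Every high-fat library was above every control. The means were 7.16% ± 2.13 (SD, n = 5) and 11.2% ± 1.52 (SD, n = 4). The exact permutation p was 0.0159, the smallest that 5 against 4 libraries allow, and 0.127 after adjustment over the 8 ratios and percentages computed. For ratios of single names, 403 of the 9180 pairs that the 136 names of at least 100 CPM form (4.39%) had log2 ratios that did not overlap between diets, and neither ratio of miR-96-5p was among them. No such count was made for percentages of a sum. The percentages of the other members overlapped between diets: miR-182-5p was 59.9% ± 5.18 (SD, n = 5) of the sum in controls and 58.0% ± 4.75 (SD, n = 4) in high-fat libraries, and miR-183-5p was 32.6% ± 4.12 (SD, n = 5) and 30.6% ± 4.90 (SD, n = 4). Their exact permutation p-values were 0.603 and 0.492. Without high-fat libraries 1 and 3 the differences were -3.79 points for miR-182-5p and -1.26 points for miR-183-5p.

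**Figure D2:**
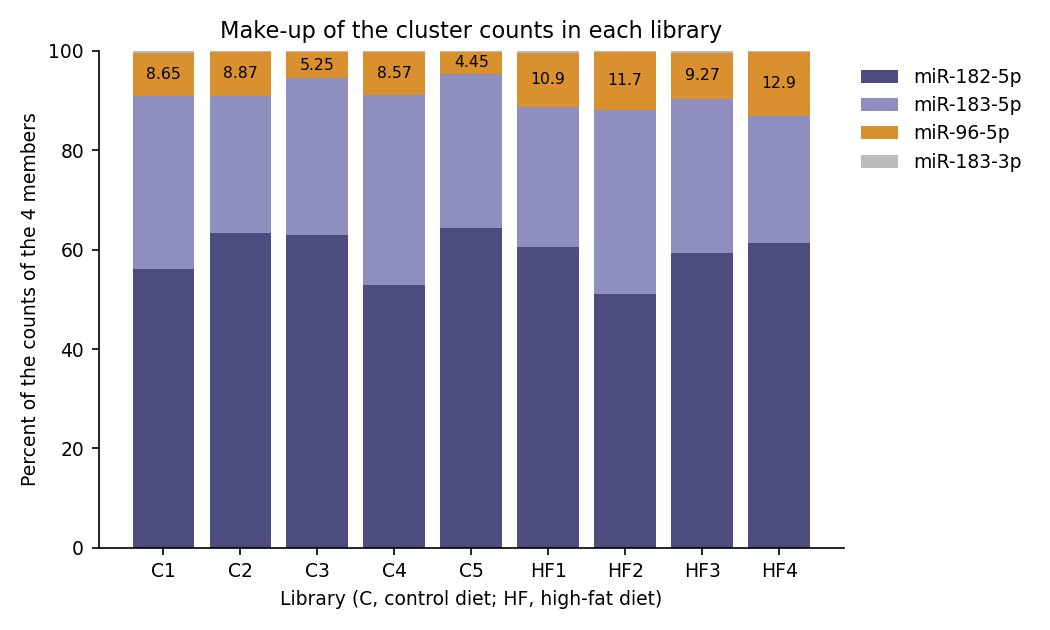
Make-up of the summed counts of the 4 members in each library (C, control; HF, high-fat), as stacked percentages; the numbers give the miR-96-5p segment. That segment spans 4.45% to 8.87% in controls and 9.27% to 12.9% in high-fat libraries, while miR-182-5p is the largest segment in every library.

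Without high-fat libraries 1 and 3, those rich in leukocyte miRNAs, the difference in the place of miR-96-5p was as large. The high-fat libraries kept, 2 and 4, had leukocyte shares of 0.0281% and 0.0566%, below all controls (0.0617% to 0.104%). Leaving libraries out thus did not balance leukocyte content between the diets. With the 5 controls and high-fat libraries 2 and 4 alone, the difference in the log2 ratio of miR-96-5p to miR-182-5p was 0.93, and that in the percentage of the cluster was 5.14 points. With 21 ways to assign 2 libraries among 7, the exact permutation p for each of these was 0.0952, the smallest this number allows. The difference in the log2 ratio of miR-96-5p to miR-183-5p was 0.91 (exact permutation p = 0.190). Over all 9 libraries, log2 leukocyte share had a Pearson r of -0.00387 with the log2 ratio of miR-96-5p to miR-182-5p (exact permutation p = 0.871, rho -0.367 with an exact p of 0.336). It had an r of -0.309 with miR-96-5p itself (exact permutation p = 0.426, rho -0.483 with an exact p of 0.194), and -0.659 after centring on diet means (exact permutation p = 0.0250). Without high-fat 1 and 3, the libraries farthest from the median leukocyte share, r was -0.747 with the ratio and -0.779 with miR-96-5p (unadjusted exact permutation p = 0.0270 and 0.0286). Among the other 7 libraries, high-fat 2 and 4 had both the lowest leukocyte shares and the highest miR-96-5p. Their miR-96-5p was 2110 and 1668 CPM, against at most 1536 CPM in controls. Leukocyte share and diet thus cannot be told apart in the correlations without high-fat 1 and 3. The value centred on diet means does not rest on the difference between diets. Within the high-fat dams, miR-96-5p was 1153, 2110, 1198 and 1668 CPM in libraries 1 to 4, the reverse order of their leukocyte shares. Control 5, the library with the lowest ratio, was also the shallowest, and high-fat 2, with the highest, was the deepest. Over the 9 libraries, log2 total count and the log2 ratio had a Pearson r of 0.541 (exact permutation p = 0.142) and a Spearman rho of 0.533 (exact permutation p = 0.148). Without the 2 libraries with the most extreme totals, r was -0.362. The share of epithelial miRNAs and the log2 ratio had an r of 0.622 (exact permutation p = 0.0650) and a rho of 0.533 (p = 0.148, exact). Without its 2 most extreme libraries r was 0.658 (unadjusted exact permutation p = 0.025). Epithelial share and miR-96-5p itself had an r of 0.59 (exact permutation p = 0.087) and a rho of 0.70 (unadjusted exact permutation p = 0.043). None of 20 such relations between depth or marker shares and the members over all 9 libraries passed the threshold after adjustment, the lowest adjusted p being 0.470. The values without libraries or centred on diet were not adjusted, and the part of depth and cell make-up in the ratio was not tested further.

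The covariation of the members asks whether products of 1 transcript go up and down together from dam to dam. On the scale of log2(TMM-scaled CPM + 1), miR-182-5p and miR-183-5p had a Pearson r of 0.692 over 9 libraries (exact permutation p = 0.0389, adjusted over 6 pairs 0.234) and a Spearman rho of 0.717 (exact permutation p = 0.0369, adjusted 0.221). The correlation was 0.628 after centring on diet means (exact permutation p = 0.0826). Without control 1 and high-fat 1, the libraries farthest from the median of miR-182-5p, it was 0.597 with an exact permutation p of 0.156. The relation thus passed the threshold of 0.05 neither after adjustment over all 9 libraries nor without those 2 libraries, where r was of similar size. With values set against the mean log count of all tested names in the library, r was 0.840 with a p of 0.0264 adjusted over 6 pairs by the exact permutation test. On this scale r was higher for every pair of members, for example 0.672 for miR-183-5p with miR-183-3p and 0.405 for miR-96-5p with miR-183-5p. Among the members, the rise was thus not particular to miR-182-5p and miR-183-5p. No values of other miRNA pairs are given on this scale, so how common such a rise or such an r is beyond the members is not known.

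No relation of miR-96-5p to the other members was detectable with 9 libraries. Its Pearson r was -0.210 with miR-182-5p (exact permutation p = 0.589, rho -0.167 with an exact p of 0.678) and 0.184 with miR-183-5p (exact permutation p = 0.630, rho 0.0333 with an exact p of 0.948). Adjusted over the 6 pairs, both Pearson p-values were 0.756. Without control 1 and high-fat 1, the libraries farthest from the median of miR-182-5p, r with miR-182-5p was -0.506. Without control 5 and high-fat 2, the libraries farthest from the median of miR-96-5p, r with miR-183-5p was -0.0168. Controls 3 and 5 were the 2 highest libraries in miR-182-5p and the 2 lowest in miR-96-5p, and high-fat 2 was high in all 3 of the 5p members. After centring on diet means, r was 0.114 with miR-182-5p and 0.505 with miR-183-5p. miR-183-5p and miR-183-3p, which come from 1 hairpin, had an r of 0.536 (exact permutation p = 0.134) and a rho of 0.567 (exact permutation p = 0.121), and r was 0.473 without the 2 libraries farthest from the median. With 31 counts in its lowest library, miR-183-3p had a counting error of up to 0.26 on the log2 scale, against an SD of 0.47 between controls.

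**Figure D3:**
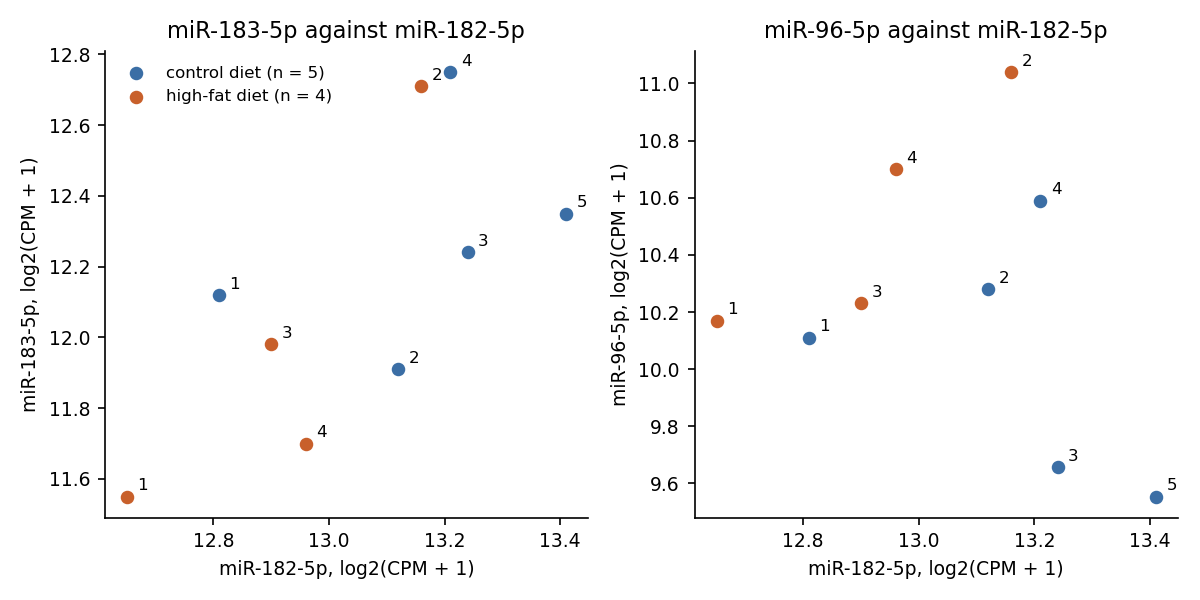
miR-183-5p (left) and miR-96-5p (right) against miR-182-5p, each as log2(TMM-scaled CPM + 1), with 1 point per library and the library number beside it. The left panel rises from high-fat 1 to control 5 (r = 0.692), while in the right panel controls 3 and 5 lie low in miR-96-5p at high miR-182-5p (r = -0.210).

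The 136 names of at least 100 CPM give a frame for these values. Over their 9180 pairs the median r was -0.00460 and the median SD of the log2 ratio over 9 libraries was 0.46. For miR-183-5p to miR-182-5p the SD was 0.30, and 14.8% of pairs had a lower SD and 3.82% a higher r. For miR-96-5p the SD was 0.58 against miR-182-5p and 0.57 against miR-183-5p, with 69.2% and 68.2% of pairs having a lower SD. All pairs share the 9 libraries and their scaling, so these shares are a description only.

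Other miRNAs that share a primary transcript also varied widely in how closely they kept together. Over 22 pairs of 11 other clusters, the SD of the log2 ratio ran from 0.11 to 1.05 with a median of 0.37, and r from -0.613 to 0.966 with a median of 0.184. In 16 of these pairs both names had a mean of at least 100 CPM, as the 5p members do. Over those 16 pairs the SD ran from 0.11 to 0.68 with a median of 0.33, and the median r was 0.207. The closest was miR-221-3p with miR-222-3p, with an SD of 0.11 and an r of 0.966. miR-200c-3p and miR-141-3p, an epithelial pair, had an SD of 0.68 and an r of -0.366. The pairs of 5p members lay inside the ranges of SD and r of either set, with both miR-96-5p pairs above its median SD.

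**Figure D4:**
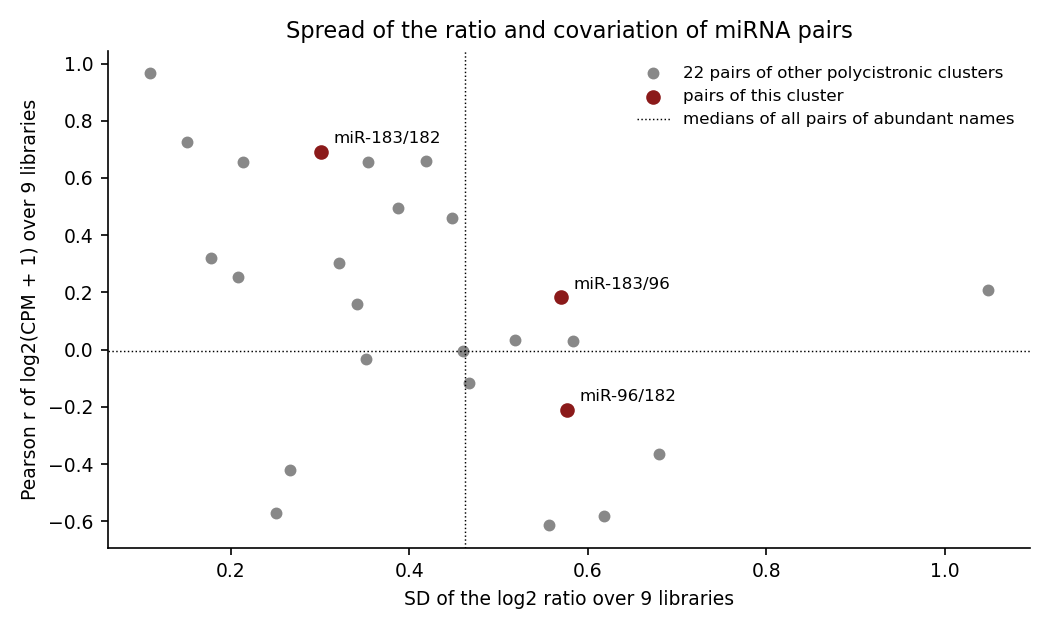
SD of the log2 ratio of counts (x axis) and Pearson r of log2(TMM-scaled CPM + 1) (y axis) over 9 libraries, for 22 pairs from 11 other clusters (grey) and the 3 pairs of 5p members (red). Dotted lines are the medians over the 9180 pairs of abundant names; miR-183-5p with miR-182-5p lies at an SD of 0.30 and an r of 0.692, and both miR-96 pairs lie at an SD above the median.

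Ranked by likeness of pattern, as Pearson r of log2(TMM-scaled CPM + 1) over the 9 libraries with 135 other names of at least 100 CPM, the nearest names to miR-182-5p were miR-532-5p (r = 0.749), miR-203-3p (0.739) and miR-193b-3p (0.702). Here miR-183-5p took place 4 and miR-96-5p place 94. Nearest to miR-183-5p were miR-146b-5p (0.752), miR-146b-3p (0.721) and miR-182-5p itself (0.692), with miR-96-5p at place 48. Nearest to miR-96-5p were miR-210-3p (0.943), miR-362-3p (0.843) and miR-101a-3p (0.810), while miR-183-5p was at place 47 and miR-182-5p at place 86. The mean of miR-210-3p was 247 CPM in controls and 304 CPM in high-fat libraries, a log2 fold change of 0.31 ± 0.17 (SE).

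No member passed the threshold for diet. By limma-voom over the 312 tested names, the log2 fold change of high-fat over control for miR-96-5p was 0.51 ± 0.26 (SE), with a 95% interval of -0.06 to 1.07 and an adjusted p of 0.537. Its mean was 1088 ± 323 CPM (SD, n = 5) in controls and 1532 ± 450 CPM (SD, n = 4) in high-fat libraries. For miR-182-5p the log2 fold change was -0.23 ± 0.15 (SE), from -0.57 to 0.11, with means of 9213 ± 1356 CPM (SD, n = 5) and 7796 ± 1135 CPM (SD, n = 4). For miR-183-5p it was -0.28 ± 0.25 (SE), from -0.83 to 0.27, with means of 5051 ± 1135 CPM (SD, n = 5) and 4258 ± 1669 CPM (SD, n = 4). For miR-183-3p it was -0.23 ± 0.28 (SE), from -0.85 to 0.38. The limma-voom adjusted p-values of these 3 were 0.650, 0.693 and 0.748. The sparsely read arms had log2 fold changes of -0.17 ± 0.45 (SE) for miR-182-3p and -0.75 ± 0.46 (SE) for miR-96-3p, with limma-voom adjusted p-values of 0.885 and 0.650. The intervals still allow a change of miR-96-5p by more than 1 on the log2 scale.

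Few of the other names differed by diet either. Of all 312 names, 0 (0%) were called at an adjusted p under 0.05 by limma-voom, with 0.0996 the smallest adjusted p. At an unadjusted p under 0.05, 32 names (10.3%) were counted, 14 higher and 18 lower in high-fat libraries, and 0 of the 4 members were among them. Limma-trend, by comparison, called 2 names, neither of them a member. Diets did not overlap for 10 names with high-fat higher (3.21%) and for 5 names with high-fat lower (1.6%), and 0 of the members were among either. Fold changes above 0 were found for 158 names (50.6%), and for 1 of the 4 members. The median log2 fold change over all names was 0.00403.

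**Figure D5:**
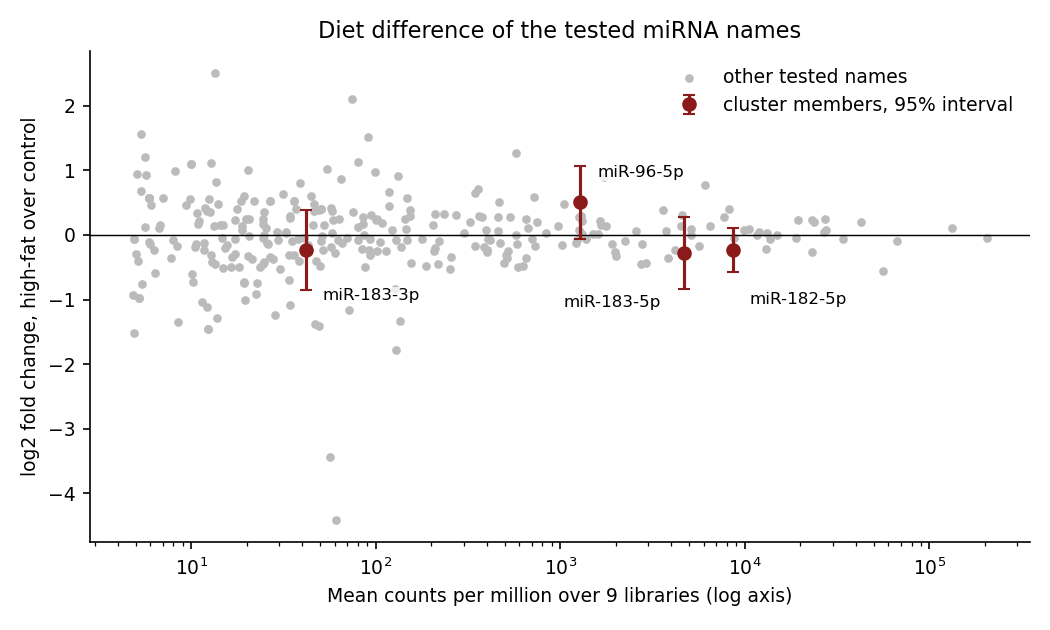
Diet difference (log2 fold change of high-fat over control by limma-voom, y axis) against mean TMM-scaled CPM (x axis, log scale) for the 312 tested names. The 4 members are in red with 95% intervals, all of which include 0; miR-96-5p is at 0.51 and the other members lie between -0.28 and -0.23.

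The diet values moved when single libraries were left out. Without high-fat 2, the deepest library and the one highest in miR-96-5p, the log2 fold change was 0.26 for miR-96-5p and -0.60 for miR-183-5p (limma-voom adjusted p = 0.705 and 0.312). With high-fat 2 and 4 as the only high-fat libraries, leaving out those rich in leukocyte miRNAs, it was 0.85 for miR-96-5p, -0.09 for miR-182-5p, -0.05 for miR-183-5p and -0.38 for miR-183-3p, with adjusted p-values of 0.259, 0.864, 0.972 and 0.663 by limma-voom. The part of leukocyte RNA in the lower values of miR-182-5p and miR-183-5p was not tested. Over the 9 libraries, log2 leukocyte share and miR-183-5p had a Pearson r of -0.635 (exact permutation p = 0.0496, adjusted over 20 relations 0.470) and a rho of -0.350 (exact permutation p = 0.359). Without high-fat 1 and 3, the 2 libraries farthest from the median leukocyte share, r was -0.350, so the relation rests on those libraries. For miR-182-5p r was -0.604 (exact permutation p = 0.0989, rho -0.200 with an exact p of 0.613), and it turned to 0.288 without the same libraries (exact permutation p = 0.524).

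The whole cluster made up 1.32%, 1.38%, 1.54%, 1.76% and 1.70% of counts in controls 1 to 5 and 1.15%, 1.75%, 1.26% and 1.25% in high-fat dams 1 to 4. High-fat 2 was near the top of the controls and the other 3 high-fat libraries were below all of them. The difference in means was -0.184 percentage points (two-sided exact permutation test, p = 0.222). Without high-fat 2 it was -0.316 points with an unadjusted exact permutation p of 0.0357, the smallest this number of libraries allows. With any other single library left out, the exact permutation p was 0.171 or higher. This 1 library thus decides on which side of the threshold the unadjusted difference falls. With high-fat 2 and 4 as the only high-fat libraries it was -0.0364 points (exact permutation p = 0.762).

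Other miRNAs described as acting on sterol handling or on FOXO1 were taken as a list of 11 names, of which 9 were tested. Of these, 3 had a log2 fold change above 0 and 6 below, with a median of -0.06 against 0.00403 over all names, and 0 passed the threshold. miR-223-3p, miR-148a-3p and miR-144-3p of this list also stand in the leukocyte, epithelial and red-cell lists. The largest changes were those of miR-122-5p, the main liver miRNA, at -0.69 ± 0.50 (SE), and miR-33-5p, which is encoded in an intron of the SREBP-2 gene and acts on cholesterol export, at 0.48 ± 0.41 (SE). Of the epithelial miRNAs, 5 of 8 were above 0 and 3 below, with 0 past the threshold and a median of 0.13. miR-141-3p, of the miR-200 family, had the largest change of them, 0.77 ± 0.22 (SE) with a limma-voom adjusted p of 0.233. All 6 leukocyte miRNAs were above 0, against 50.6% of all tested names, with a median of 0.84 and 0 past the threshold. Their summed share was above all controls in high-fat 1 and 3 (1.22% and 0.351%). In high-fat 2 and 4 (0.0281% and 0.0566%) it was below all controls. The largest leukocyte changes were those of miR-142a-5p, 1.26 ± 1.11 (SE), and miR-150-5p, 1.02 ± 2.23 (SE). Of the 4 red-cell names 2 were tested and both were above 0, with 0 past the threshold, as were both tested of 6 neural and retinal names. Of the 3 stromal names tested, 2 were above 0 and 1 below, with 0 past the threshold.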

How the data were processed

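Milk fat RNA of 9 dams was sequenced as small RNA libraries (NEXTflex kit, HiSeq2500), per the labels' protocols. The submitters' processing notes name cutadapt 1.9.1 and the GRCm38 build. The sources used here do not state the aligner, counter or miRBase release, any use of the kit's random bases, or a batch or date. The authors deposited raw read counts per mature and precursor name, with comma separators in 833 cells, which were removed. Of several rows of a name, the highest count per library was kept. With the separators, the columns did not pass a check for plain counts, so limma-voom was used in place of a count model. Once the separators were removed the values were whole numbers, so a count model was possible but was not run.

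Names with 10 counts scaled to the median library (5.25 CPM) in at least 4 libraries and 15 in total were tested: 312 of 828 with a count. TMM factors trimmed 30% of log ratios and 5% of levels. Fits used limma 3.58.1 in R 4.3.3, with diet as the only term, two-sided, with Benjamini-Hochberg adjustment over all tested names and a threshold of 0.05. The fit was tested on simulated data. Ratios of members used counts plus 0.5. Single values were compared by exact permutation tests over the 126 assignments of libraries. The two-sided p is double the smaller tail, a convention settled after a first run of the tests had been seen. Correlations were tested over all orderings, and those centred on diet means over the orderings within each diet. Wilson intervals (scipy 1.17.1) and counting errors cover counting error only. Chi-square per degree of freedom was at least 28.4 for any pair of libraries of one diet, so no such pair differed by counting error alone. The members, lists and the rule for named miRNAs (members, other arms, seed relatives, the 3 nearest patterns, the 2 largest changes of each list) were chosen with earlier results of these data known.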

Additional observations from a re-analysis of the deposited data

How the results depend on the processing

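The direction and call of each member's diet fold change were kept under all 17 alternatives. These covered the scaling, the low-count filter, summed rows, limma-trend, library weights, the block and each left-out library. The last, unplanned, kept high-fat 2 and 4 as the only high-fat libraries. The fold changes ran from 0.26 to 0.85 for miR-96-5p, -0.38 to -0.09 for miR-182-5p, -0.60 to -0.05 for miR-183-5p and -0.40 to -0.12 for miR-183-3p. The ends of 0.85, -0.09 and -0.05 came from that unplanned setting. The number of miRNAs called was 4 with no low-count filter, 2 with limma-trend, 2 with library quality weights, 3 with the replicate block and 0 to 4 with 1 library left out, with 4 reached without control 5. Library numbers are counted within diets and do not state a pairing. Deviations of same-numbered libraries had correlations of 0.0534, -0.0886, 0.196 and -0.129. Whether such libraries share a batch or date was not tested. Under the replicate block the difference in the log2 ratio of miR-96-5p to miR-182-5p was 0.55, with an exact p of 0.125, the smallest 4 pairs allow.

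The difference in the place of miR-96-5p within the cluster kept its sign throughout, from 3.35 to 5.14 percentage points, and its log2 ratios ran from 0.55 to 0.93 to miR-182-5p and from 0.64 to 0.94 to miR-183-5p. The ends of 5.14 and 0.93 came from the unplanned setting. With p-values counted from absolute differences, the convention first used, the permutation p was 0.00794 for the percentage (0.0635 adjusted over 8), 0.0476 for the ratio to miR-182-5p and 0.0317 for that to miR-183-5p (both 0.0952 adjusted over 4). With 1 library left out, the difference in cluster share ran from -0.316 (without high-fat 2) to -0.116 percentage points. The difference in the log2 ratio of miR-183-5p to miR-182-5p ran from -0.21 to 0.054, that of miR-183-5p to miR-183-3p from -0.26 to 0.10, that in the percentage of miR-182-5p from -3.71 to 0.403 and that of miR-183-3p from -0.0364 to 0.0310. With high-fat libraries 2 and 4 alone, chosen after seeing the data, the former ratios differed by 0.024 and 0.34. These values near 0 have no stable sign.

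The r of miR-182-5p with miR-183-5p was 0.840 as centred log ratios. For miR-182-5p with miR-96-5p it was 0.148 as centred log ratios, 0.114 centred on diet means and -0.414 to 0.147 with 1 library left out. For miR-182-5p with miR-183-3p it was 0.00261 on library-total CPM, 0.285 as centred log ratios, 0.326 without the 2 farthest libraries and -0.135 to 0.197 with 1 left out. For miR-96-5p with miR-183-5p it was -0.0168 without the 2 farthest and -0.193 to 0.381 with 1 left out, and for miR-96-5p with miR-183-3p 0.0316 as centred log ratios and -0.340 to 0.0222 with 1 left out. The cause of these changes was not tested. Depth limits miR-183-3p and the other 3p arms most, and 9 libraries limit every correlation.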

Other observations

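Set beside the 22 pairs of 11 other clusters, the difference of 0.74 between diets in the log2 ratio of miR-96-5p to miR-182-5p was exceeded by 2 pairs, named here after their values were seen. The log2 ratio of miR-200c-3p and miR-141-3p, an epithelial pair, differed by 1.05 between diets, toward miR-141-3p in high-fat libraries. That of miR-322-5p and miR-503-5p differed by 1.58, at means of 208 and 71.3 CPM. The other 20 pairs differed by at most 0.69. These differences were not tested, and the pairs share the same 9 libraries.

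The shares, ratios and percentages of the members and other arms were searched for single libraries far from the others of their diet by Dixon's test. In 30 sets of 4 or 5 libraries none was found, where chance would give about 1.5.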
